A study of Rattus norvegicus with 4 samples.

Results

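Transcript levels of 10 genes that control or build the hair follicle were followed in ear skin of 2 Sprague Dawley rats. The genes were Msx1, Msx2, Foxn1, Hoxc13, Dlx3, Trps1, Sox21, Tchh, Padi3 and Vdr, taken by symbol from a table of 54532 genes. Each symbol matched 1 row, and 7 of the 10 had enough counts to be tested. In each rat 1 ear had been injected with AAV-Fgf7 (labelled Fgf7 overexpression), an adeno-associated virus that carries the gene for fibroblast growth factor 7, a factor made by mesenchymal cells that acts on epithelial cells. The other ear had been injected with a control virus (labelled wild type), and the injected skin of both ears was taken on day 3. The groups therefore held 2 libraries each, 1 per rat. The sources used here do not give the age or sex of the animals, the promoter in the virus or the cargo of the control virus. The labels name 1 treated column for both AAV-Fgf7 samples, and the other treated column was given to rat 2 by its number, so statements that compare the ears of a rat rest on that match. The labels and the design text place the viruses in opposite ears, so left and right are not used.

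A hair follicle is an epithelial tube around a hair shaft. At its base, matrix cells divide around a dermal papilla and then differentiate into the concentric layers of the inner root sheath and of the shaft. Transcription factors of the homeobox, forkhead, GATA-type and SOX families act in this differentiation, and in rodents loss of several of them leaves the coat sparse, brittle or absent. Follicles pass through cycles of growth (anagen), regression and rest, and hair keratins and trichohyalin are made in growing follicles. The transcription factors and the receptor among the members are Msx1, Msx2, Hoxc13, Dlx3, Foxn1, Trps1, Sox21 and Vdr. Tchh and Padi3 are not regulators of transcription: Tchh encodes the structural protein trichohyalin and Padi3 an enzyme that modifies it.

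In these libraries Hoxc13, Dlx3, Msx2 and Tchh varied together over a wide range, in an order that did not follow the virus. All 4 were most abundant in the AAV-Fgf7 ear of rat 1 and next most abundant in the control ear of rat 2, and they were scarce in the remaining ears. With columns matched to rats as above, the AAV-Fgf7 ear of rat 1 held 5.80 to 34.9 times the level of its control ear. In contrast, the control ear of rat 2 held 2.61 to 4.67 times the level of that rat's AAV-Fgf7 ear. With the treated columns exchanged, Hoxc13, Dlx3 and Tchh would be higher under AAV-Fgf7 in both rats. Msx2 would then be lower in rat 1 and higher in rat 2. Msx1, Sox21 and Trps1 varied far less. No member passed the test of AAV-Fgf7 against control virus over all genes, and neither did Fgf7, the delivered gene. In bulk tissue, fewer follicle cells and less transcript per follicle cell cannot be told apart.

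Library totals ran from 1299136 to 1601321 counts, and 6370 genes passed the low-count filter and were tested. Levels are given as CPM, which are counts relative to the scaled library total and compare libraries but not genes, or as the authors' FPKM, which also divide by gene length. Rows of the table are mouse gene models with mouse coordinates, so reads of a rat transcript may be counted only in part or not at all. Fgf7, read as a check of the labels, stood at 71.4 CPM in the control ear and 321 CPM in the AAV-Fgf7 ear of rat 1, and at 73.2 and 989 CPM in rat 2. Both AAV-Fgf7 libraries therefore lay above both controls for the delivered gene, and Fgf7 was higher in the AAV-Fgf7 ear of rat 2, the one with the lower levels of Hoxc13, Dlx3, Msx2 and Tchh. The epidermal keratins Krt5 and Krt14 were detected in every library, at 220.2 to 862 CPM and 370.1 to 1596 CPM.

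Homeobox genes formed the largest family among the members. Hoxc13 encodes a homeodomain factor of the hair matrix and shaft that controls hair keratin genes, and mutations in it cause loss of hair and nail defects. It is listed on mouse chromosome 15 from 102921103 to 102928814 on the plus strand (mouse build not given in the sources used here). In rat 1 its raw count was 7 in the control ear and 155 in the AAV-Fgf7 ear, or 5.32 and 109 CPM. In rat 2 the counts were 57 and 21, or 37.9 and 14.5 CPM. The highest and lowest libraries were the 2 ears of rat 1, and both libraries of rat 2 lay between them. The groups overlapped because the control ear of rat 2 lay above the AAV-Fgf7 ear of that rat. Means were 21.6 ± 23.1 CPM under control virus and 62.0 ± 67.1 CPM under AAV-Fgf7 (SD, n = 2), and the log2 fold change was 1.50 (SE 1.09).

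Dlx3, a distal-less homeobox gene of the hair matrix and of suprabasal epidermis that is mutated in tricho-dento-osseous syndrome, showed almost the same profile. It is listed on mouse chromosome 11 from 95120119 to 95125296 on the plus strand. Rat 1 had 5.32 CPM in the control ear and 89.7 CPM in the AAV-Fgf7 ear, from counts of 7 and 127. Rat 2 had 50.6 and 19.4 CPM, from counts of 76 and 28. The control ear of rat 2 thus held more Dlx3 than the AAV-Fgf7 ear of the same rat, and the groups overlapped. The log2 fold change was 0.94 (SE 1.02).

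Msx2, a muscle-segment homeobox gene downstream of BMP signals in the hair matrix, was the third of this kind. It is listed on mouse chromosome 13 from 53466884 to 53473074 on the minus strand. Its level went from 15.9 CPM in the control ear to 92.5 CPM in the AAV-Fgf7 ear of rat 1 (counts of 21 and 131). In rat 2 it stood at 45.3 and 10.4 CPM (counts of 68 and 15). Here the AAV-Fgf7 ear of rat 2 was the lowest library rather than the control ear of rat 1. The log2 fold change was 0.74 (SE 0.96).

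Msx1, the paralogue of Msx2 with overlapping roles in hair, teeth and craniofacial tissue, had the same highest and second highest libraries but a narrow range. It is listed on mouse chromosome 5 from 37820485 to 37824583 on the minus strand. The control and AAV-Fgf7 ears held 37.2 and 50.1 CPM in rat 1 (counts of 49 and 71) and 47.9 and 24.9 CPM in rat 2 (counts of 72 and 36). The highest library held 2.01 times the lowest, against 8.91 times for Msx2. In rat 1 the ratio of AAV-Fgf7 to control was 1.35, with a 95% counting interval (exact binomial, from the counts of the 2 ears) of 0.923 to 1.98 that spans 1. In rat 2 it was 0.520 with an interval of 0.339 to 0.786, below 1. The log2 fold change was -0.18 (SE 0.41).

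**Figure D1:**
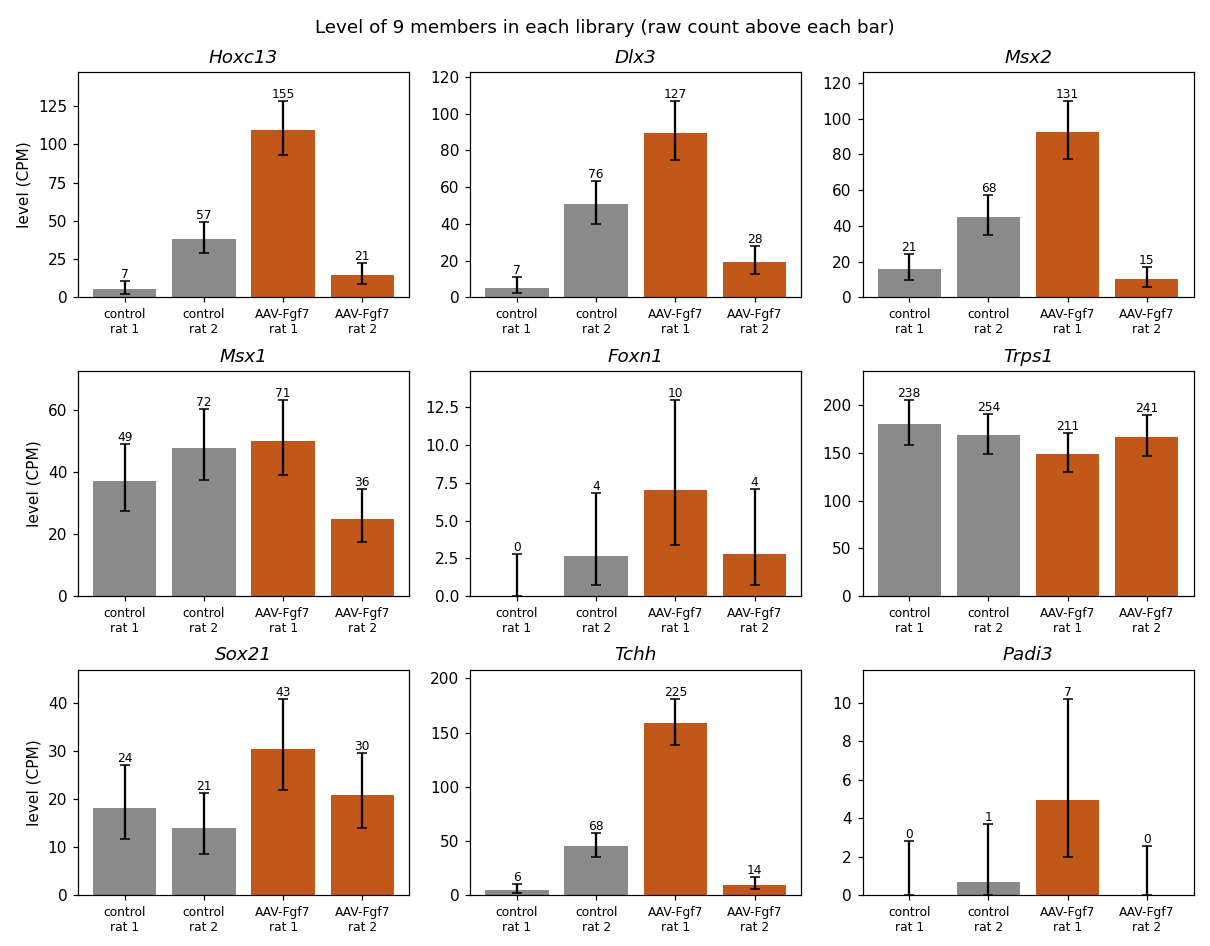
Level in CPM (vertical axis, from 0, with its own scale in each panel) of 9 members in the 4 libraries (horizontal axis; grey, control virus; orange, AAV-Fgf7). Bars give the level, whiskers the exact 95% Poisson interval of counting error and the number above each bar the raw count; Hoxc13, Dlx3, Msx2 and Tchh share a profile with the AAV-Fgf7 ear of rat 1 highest and the control ear of rat 2 next, while Trps1 stays between 149 and 181 CPM.

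Tchh had the widest range of the tested members. Trichohyalin, its product, is the granule protein of the inner root sheath and hair medulla, where it is citrullinated and crosslinked into a hardened matrix. The gene is listed on mouse chromosome 3 from 93442330 to 93449077 on the plus strand. Rat 1 had 6 counts in the control ear and 225 in the AAV-Fgf7 ear, or 4.56 and 159 CPM, and rat 2 had 68 and 14 counts, or 45.3 and 9.69 CPM. The AAV-Fgf7 ear of rat 1 alone held 71.9% of all Tchh counts. The ratio of AAV-Fgf7 to control was 34.9 in rat 1 (95% counting interval 15.8 to 96.1) and 0.214 in rat 2 (0.111 to 0.384). The intervals exclude 1 on opposite sides. With the ears matched as above, those of each rat thus differed beyond counting error, in opposite directions. They cover counting error only, since reads without molecular identifiers are not independent molecules. The log2 fold change over both rats was 1.74 (SE 1.32).

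Padi3, which encodes the peptidylarginine deiminase that citrullinates trichohyalin in the follicle, was close to the limit of detection and was not tested. Rat 1 had 0 counts in the control ear and 7 in the AAV-Fgf7 ear, and rat 2 had 1 and 0. It was thus seen with more than 1 count only in the AAV-Fgf7 ear of rat 1, the library with the most Tchh. Against the limit that a count of 0 allows (3 counts per library), the AAV-Fgf7 ear of rat 1 was at least 2.17-fold higher than the control ear of that rat, taking its 7 counts as exact. The lower end of the 95% counting interval of this ratio was 1.34.

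Promoters of Tchh and Msx2, from the members whose levels varied together, are shown with that of Msx1, the member related to Msx2 that varied little. RefSeq sequences of the rat assembly GRCr8 matched 7 of the 10 members by symbol. Hoxc13, Dlx3 and Trps1 had no promoter sequence and could not be compared. The 250 bases before the annotated start are given in lower case, and capitals mark TATAAA (the TATA box), CCAAT (the CCAAT box), TAATTG (a core bound by Msx and Dlx homeodomains) and ACGC (the core bound by FOXN1), searched on both strands. Matches can share bases, as those of CCAAT on the 2 strands do in Msx2, and TAATTG can overlap CCAAT. Tchh lies at chr2:181786859-181787108 on the plus strand, Msx2 at chr17:11102034-11102283 on the plus strand and Msx1 at chr14:77185552-77185801 on the plus strand.
Tchh: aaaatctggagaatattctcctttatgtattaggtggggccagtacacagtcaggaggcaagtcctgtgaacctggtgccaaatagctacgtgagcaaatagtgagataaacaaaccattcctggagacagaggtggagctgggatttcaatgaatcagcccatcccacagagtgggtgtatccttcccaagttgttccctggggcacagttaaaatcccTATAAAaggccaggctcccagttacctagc
Msx2: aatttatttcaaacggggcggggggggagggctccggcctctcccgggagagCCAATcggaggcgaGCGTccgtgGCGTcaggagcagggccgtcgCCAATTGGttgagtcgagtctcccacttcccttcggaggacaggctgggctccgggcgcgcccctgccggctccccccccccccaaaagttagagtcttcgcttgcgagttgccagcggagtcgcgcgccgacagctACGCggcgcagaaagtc
Msx1: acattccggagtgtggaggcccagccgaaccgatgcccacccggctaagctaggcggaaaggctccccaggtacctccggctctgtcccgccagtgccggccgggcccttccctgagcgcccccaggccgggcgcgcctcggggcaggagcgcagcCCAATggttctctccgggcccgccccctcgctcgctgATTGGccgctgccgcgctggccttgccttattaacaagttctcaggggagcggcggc

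The Tchh promoter held TATAAA from 30 to 25 bases before the start, a motif in 12.9% of all 33469 rat promoters of this length. Both Msx promoters held CCAAT on both strands, as 34.0% of all promoters do on at least 1. Msx2 also held ACGC, found in 48.4% of promoters, and Msx1 did not. None of the 3 held TAATTG, which occurs in 7.31%. The G and C content was 47.6% for Tchh, 67.6% for Msx2 and 71.2% for Msx1, with a median of 51.2% over all promoters. Tchh thus differed in base composition and motifs from the Msx2 promoter, although both genes followed the same order at the top of the libraries. A match describes the letters only.

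Foxn1, the forkhead factor of the nude phenotype, which acts in differentiating matrix cells and is itself lost in hairless nude rats and mice, was read at low depth and was not tested. Rat 1 had 0 counts in the control ear and 10 in the AAV-Fgf7 ear, and rat 2 had 4 in each. The AAV-Fgf7 ear of rat 1 was at least 3.10-fold higher than that rat's control ear (against 3 counts, taking its 10 counts as exact), and the lower end of the 95% counting interval was 2.08. In rat 2 the ratio was 1.04 with a counting interval of 0.194 to 5.58. No difference between the ears of rat 2 was detectable at this depth. The highest library was again the AAV-Fgf7 ear of rat 1.

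Trps1, an atypical GATA-type repressor of follicle epithelium, dermal papilla and cartilage that is mutated in tricho-rhino-phalangeal syndrome, was the steadiest member. It is listed on mouse chromosome 15 from 50654752 to 50890463 on the minus strand. Levels in the control and AAV-Fgf7 ears were 181 and 149 CPM in rat 1, from counts of 238 and 211, and 169 and 167 CPM in rat 2, from counts of 254 and 241. Both AAV-Fgf7 libraries lay below both controls by little, and no longer when levels were taken relative to library totals alone (183 and 147 CPM in rat 1, 159 and 170.0 CPM in rat 2). The ratio of AAV-Fgf7 to control was 0.825 in rat 1 (95% counting interval 0.682 to 0.997) and 0.987 in rat 2 (0.824 to 1.18), so only the interval of rat 1 excluded 1, and narrowly. The log2 fold change was -0.15 (SE 0.19). The widest gap between 2 libraries was 1.21-fold, and 89.7% of tested genes had a range at least as wide.

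Sox21, a SOX-family factor of the hair shaft cuticle whose loss causes cyclic hair loss in mice, was the tested member with both AAV-Fgf7 libraries above both controls. It is listed on mouse chromosome 14 from 118233232 to 118237030 on the minus strand. Rat 1 held 18.2 CPM in the control ear and 30.4 CPM in the AAV-Fgf7 ear (counts of 24 and 43), and rat 2 held 14.0 and 20.8 CPM (counts of 21 and 30). The ratio of AAV-Fgf7 to control was 1.67 in rat 1 and 1.49 in rat 2, and both counting intervals spanned 1 (0.989 to 2.87 and 0.823 to 2.73). The log2 fold change was 0.67 (SE 0.40), and its unadjusted edgeR p of 0.144 was the lowest of the 7 tested members. Over all tested genes, 14.8% had both AAV-Fgf7 libraries above both controls and 13.3% had both below, so that 1 of 7 members in each direction is near the background.

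Vdr, the vitamin D receptor, which keeps follicles able to regrow after the first coat, had a count of 0 in every library. Taken as a limit of 3 counts, a count of 0 allows up to 2.28 CPM in the library with the smallest scaled total. The exact 95% Poisson interval of Vdr in that library ended at 2.80 CPM. Because the gene models are those of the mouse, 0 counts may also mean that rat reads were not assigned. Of 16 partners and targets of the receptor fixed as a list, 13 had a count and 8 were tested. Their median log2 fold change was 0.02, with 5 above 0, 3 below 0 and 0 past the edgeR threshold. Of the heterodimer partners, Rxra had a value of 0.07 (SE 0.24) and Rxrb one of -0.21 (SE 0.26). Cyp24a1, the vitamin D degrading enzyme and a standard target of the receptor, had no counts, and neither had Cyp27b1 or S100g.

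Per gene length, the members changed rank from ear to ear. In the control ear of rat 1, the authors' FPKM were highest for Trps1 (13.3) and Msx1 (11.8), while Hoxc13 stood at 2.13, Dlx3 at 2.01 and Tchh at 0.771. In the AAV-Fgf7 ear of rat 1, Hoxc13 led at 43.5 FPKM, then Dlx3 at 33.7, Msx2 at 27.6 and Tchh at 26.7, with Trps1 at 10.9. Dlx3 led in the control ear of rat 2 at 19.0 FPKM, and Trps1 again in the AAV-Fgf7 ear of rat 2 at 12.2 FPKM. Averaged over the 4 libraries, FPKM were 16.6 ± 18.7 for Hoxc13, 15.5 ± 14.0 for Dlx3, 12.7 ± 3.65 for Msx1, 12.3 ± 11.2 for Msx2, 12.2 ± 0.993 for Trps1 and 9.18 ± 12.1 for Tchh (SD, n = 4). In that order each gap between neighbours was smaller than the larger SD of the pair. Sox21 followed at 5.38 ± 1.78 FPKM, Foxn1 at 0.952 ± 0.889 and Padi3 at 0.398 ± 0.676, and Vdr was listed at 0.

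**Figure D2:**
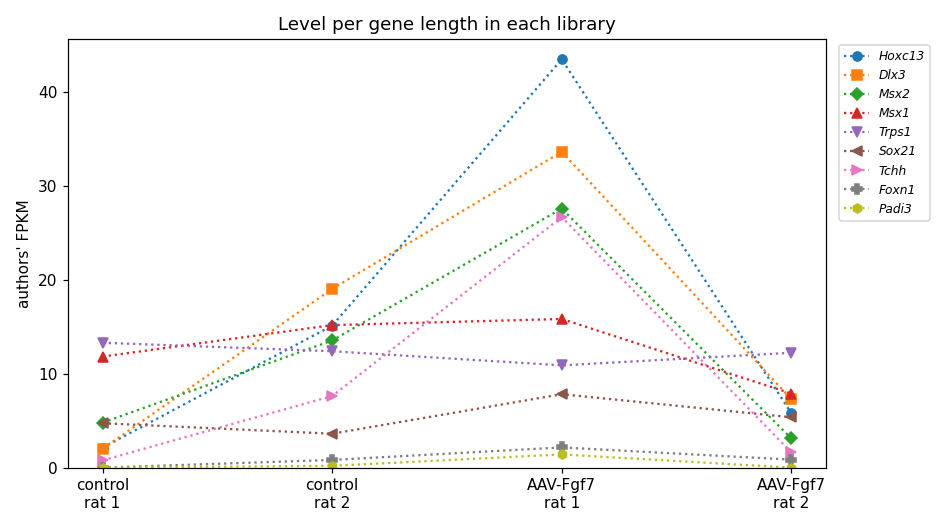
The authors' FPKM (vertical axis, counts scaled by gene length and library size) of 9 members in the 4 libraries (horizontal axis); each marker is 1 library and dotted lines join the values of a gene without implying an order. Hoxc13 reaches 43.5 FPKM in the AAV-Fgf7 ear of rat 1 from 2.13 in the control ear of that rat, and Trps1 stays between 10.9 and 13.3.

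The design sets AAV-Fgf7 against control virus within each rat, in a study of wound healing. By the edgeR quasi-likelihood test with Benjamini-Hochberg adjustment, 0 of 7 tested members and 0 of 6370 genes (0%) passed an adjusted p of 0.05. The adjusted p was 0.9996 for each of the 7, and 0 members and 148 genes had an unadjusted p under 0.05. Fgf7, the delivered gene, did not pass either (log2 fold change 3.18, SE 0.54, unadjusted p = 0.00100, adjusted p = 0.9996 by edgeR). Lack of a call therefore does not show that a member was unchanged. DESeq2 also called 0 members, and it called 3 of 12902 genes (0.0233%). Of the tested members, 5 had log2 fold changes above 0 and 2 below 0, with a median of 0.74 against -0.02 over all tested genes. The direction of that median rested on 1 library. With the AAV-Fgf7 library of rat 1 left out, the median was -0.59 and the log2 fold changes became -0.59 for Hoxc13, -0.55 for Dlx3, -1.56 for Msx2 and -1.37 for Tchh. Without the control library of rat 2 they became 3.53, 3.34, 1.69 and 4.19, and Dlx3 (adjusted p = 0.0202), Hoxc13 and Tchh (adjusted p = 0.0313 for both) were called by edgeR, beside 0.581% of all genes. Without the control library of rat 1, 0 members and 0.849% of all genes were called. Such a fit sets a lone control library against 2, and assumes that it varies like the AAV-Fgf7 group. Sox21 kept a positive value (0.36 to 0.91) and Trps1 a negative one (-0.23 to -0.07) whichever of the 4 libraries was left out. With rat as a replicate block, Msx2 stood at 0.29 (SE 1.34) and Tchh at 1.25 (SE 2.29), and no call changed.

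**Figure D3:**
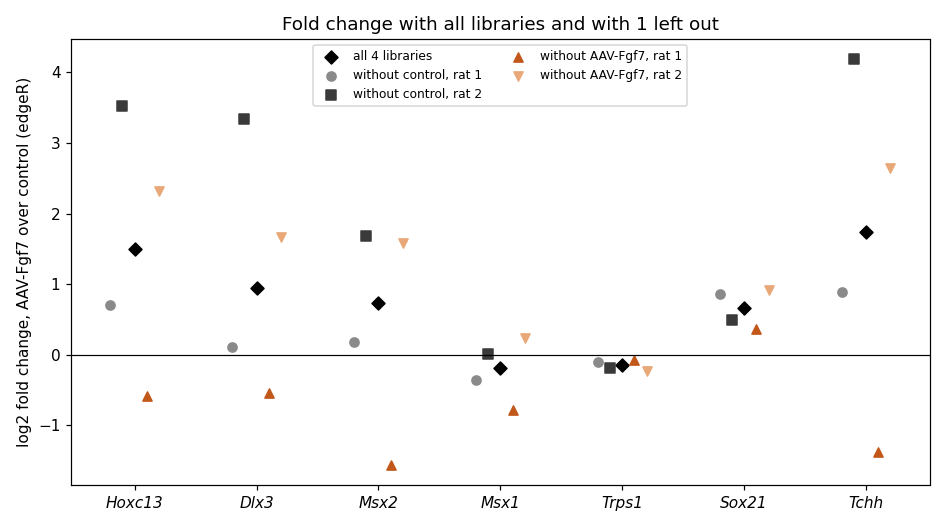
Log2 fold change of AAV-Fgf7 over control by edgeR (vertical axis) for the 7 tested members (horizontal axis), with all 4 libraries (diamonds) and with 1 library left out (other markers, named in the key). Tchh runs from -1.37 to 4.19 and Hoxc13 from -0.59 to 3.53, whereas Trps1 stays between -0.23 and -0.07.

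Within each rat the 2 ears could be set side by side, without a test, since each ear is 1 library. Of the 7 tested members, 5 (Hoxc13, Dlx3, Msx2, Msx1 and Tchh) were higher under AAV-Fgf7 in rat 1 and lower in rat 2, a combination found in 29.2% of tested genes. The same 5 had the AAV-Fgf7 ear of rat 1 highest and the control ear of rat 2 next, an order found in 7.61% of tested genes. In rat 1 the ratio was 20.6 for Hoxc13 (95% counting interval 9.76 to 52.1), 16.9 for Dlx3 (7.96 to 42.8) and 5.80 for Msx2 (3.64 to 9.69). In rat 2 it was 0.383 for Hoxc13 (0.221 to 0.642), 0.383 for Dlx3 (0.239 to 0.598) and 0.229 for Msx2 (0.122 to 0.406). These 3 genes and Tchh were at least 4 times higher in rat 1 and at least 2 times lower in rat 2, which held for 59 of 6370 tested genes (0.926%). These fold limits were set after the values had been seen. The median log2 ratio of the 7 members was 2.44 in rat 1 and -1.30 in rat 2, against 0.00 and 0.01 over all tested genes. These directions rest on the match of the treated columns to the rats. With those columns exchanged, Hoxc13, Dlx3 and Tchh would be higher under AAV-Fgf7 in both rats. Tchh would go from 4.56 to 9.69 CPM in rat 1 and from 45.3 to 159 CPM in rat 2. Msx2 and Msx1 would then be lower in rat 1 and higher in rat 2. Whether the effect of the virus differed between the rats was not tested, as there is 1 library per ear.

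**Figure D4:**
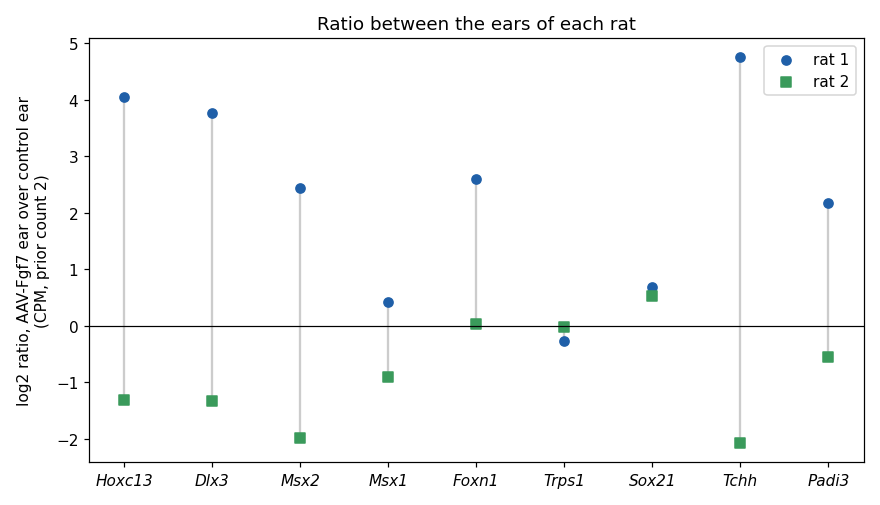
Log2 ratio of AAV-Fgf7 ear over control ear (vertical axis, from CPM with a prior count of 2) in rat 1 (circles) and rat 2 (squares) for 9 members (horizontal axis); the line at 0 marks equal levels. For Hoxc13, Dlx3, Msx2, Msx1, Tchh and Padi3 the rats lie on opposite sides of 0 (for Padi3 in rat 2 from 1 and 0 counts), with medians over the 7 tested members of 2.44 and -1.30.

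The members differed from each other in their spread over the 4 libraries. The highest library held at least 4 times the lowest for 4 of 7 tested members (Hoxc13, Dlx3, Msx2 and Tchh), against 7.61% of all tested genes. A range as wide as that of Tchh (34.9-fold) was found for 0.722% of tested genes, as wide as that of Hoxc13 (20.6-fold) for 0.911%, as wide as that of Dlx3 (16.9-fold) for 1.11% and as wide as that of Msx2 for 2.20%. The ranges of Sox21 (2.17-fold) and Msx1 were matched or exceeded by 27.7% and 32.7% of tested genes, whose median range was 1.67-fold.

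Hair keratin genes mostly had the profile of Hoxc13, Dlx3, Msx2 and Tchh. Of 24 keratins of the hair shaft and inner root sheath, 16 had a count, 7 were at 0 (Krt26, Krt35, Krt36, Krt40, Krt72, Krt74 and Krt84) and Krt85 matched no symbol. Their summed level was 53.9 CPM in the control ear and 4726 CPM in the AAV-Fgf7 ear of rat 1, and 1623 and 287 CPM in rat 2. Of the 14 tested, 13 had the AAV-Fgf7 ear of rat 1 highest and the control ear of rat 2 next, 0 passed the edgeR test, and the median log2 fold change was 1.33. Krt73 and Krt27, keratins of the inner root sheath, had the highest mean CPM of the list over the 4 libraries. They stood at 1025 and 923 CPM in the AAV-Fgf7 ear of rat 1, against 11.4 and 6.83 CPM in the control ear of that rat. The part of follicle content or growth stage in the levels of the members was not tested. Relative to 1000 CPM of this keratin sum, Tchh stood at 84.5 CPM in the control ear and 33.6 CPM in the AAV-Fgf7 ear of rat 1, and at 27.9 and 33.8 CPM in rat 2. On the same scale Hoxc13 stood at 98.6 and 23.2 CPM in rat 1 and at 23.4 and 50.7 CPM in rat 2, so its range was narrower than that of its level, and the range of Dlx3 narrowed too (98.6 and 19.0 CPM in rat 1, 31.2 and 67.6 CPM in rat 2). Msx2 did not narrow: it stood at 296 and 19.6 CPM in rat 1 and at 27.9 and 36.2 CPM in rat 2, a wider range than that of its level. Trps1, at 3352 and 31.5 CPM in rat 1 and 104 and 582 CPM in rat 2 on this scale, also had a wider range than its level did. The value of the control ear of rat 1 rests on 6 or 7 counts for Tchh, Hoxc13 and Dlx3 and on 21 for Msx2.

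Of the other tissue lists, only the fibroblast list had a sum with the same 2 highest libraries in the same order, at nearly equal values. Col1a1 and Col3a1 were the 2 of its 5 tested genes with that order. For each list, the sums of the control and AAV-Fgf7 ears are given first for rat 1 and then for rat 2. Bulge and outer root sheath genes (7 of 8 detected, Krt75 at 0) reached 525 and 532 CPM, then 379 and 713 CPM. Basal keratinocyte genes (9 of 9 detected) reached 919 and 1660 CPM, then 1005 and 3256 CPM, so they were highest in the AAV-Fgf7 ear of rat 2, where Tchh stood at 9.69 CPM. Skeletal muscle genes (14 of 14 detected) reached 15269 and 33082 CPM, then 62661 and 16293 CPM. Cartilage genes (8 of 10 detected, Cnmd and Matn1 at 0) reached 609 and 1107 CPM, then 2131 and 637 CPM. Both therefore had the control ear of rat 2 highest and the AAV-Fgf7 ear of rat 1 next, which are the 2 ears where Hoxc13, Dlx3, Msx2 and Tchh were high. The part of this difference in tissue makeup in the levels of the members was not tested. Sebaceous gland genes (8 of 8 detected) reached 92.6 and 178 CPM, then 182 and 150.2 CPM. Adipocyte genes (4 of 8 detected, with Adipoq, Cidea, Cidec and Plin4 at 0) reached 273 and 323 CPM, then 519 and 323 CPM. Fibroblast genes (5 of 7 detected, Dcn and Lum at 0) reached 34318 and 40077 CPM, then 39390 and 27379 CPM. Macrophage genes (6 of 9 detected, with C1qa, C1qb and Cd14 at 0) reached 382 and 205 CPM, then 148 and 278 CPM.

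**Figure D5:**
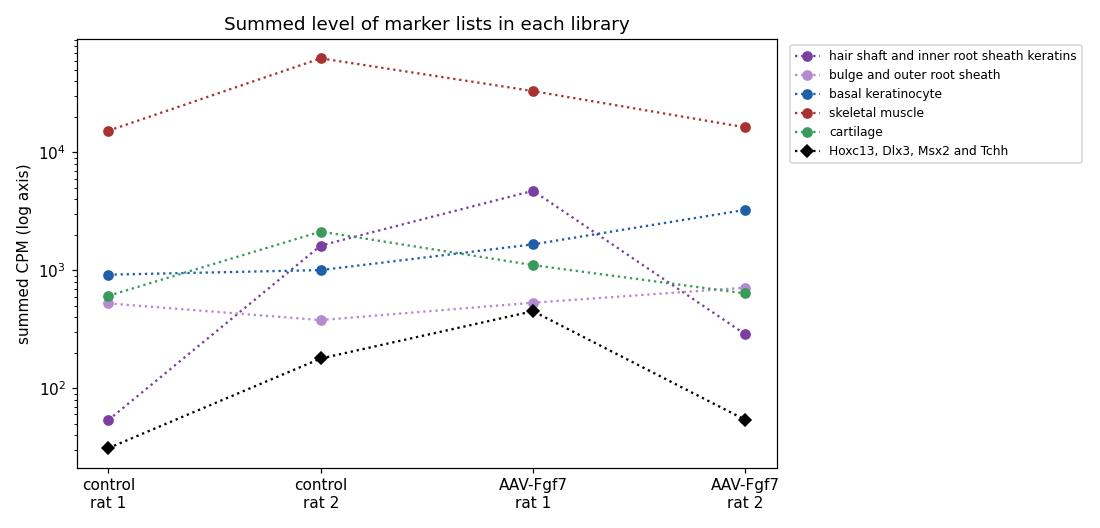
Summed CPM (vertical axis, log scale) of 5 marker lists and of Hoxc13, Dlx3, Msx2 and Tchh together (diamonds) in the 4 libraries (horizontal axis); dotted lines join the values of a list. The 4 members sum to 31.1, 179, 451 and 54.0 CPM, in the order of the libraries of hair keratins, while basal keratinocyte genes are highest in the AAV-Fgf7 ear of rat 2.

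Other regulators of the follicle were read from a list of 45 genes, of which 39 had a count and 23 were tested. By edgeR 0 of 23 passed, 11 had log2 fold changes above 0 and 12 below 0, and the median was 0.00. Hr, the hairless corepressor that binds the vitamin D receptor and acts in the follicle cycle, stood at 105 CPM in the control ear and 240.1 CPM in the AAV-Fgf7 ear of rat 1, and at 141 and 195 CPM in rat 2. Both AAV-Fgf7 libraries lay above both controls, with a log2 fold change of 0.82 (SE 0.24, unadjusted p = 0.0139, adjusted p = 0.9996 by edgeR). Barx2, a homeobox gene of follicle and other epithelia, stood at 28.9 and 62.9 CPM in rat 1 and at 43.3 and 85.9 CPM in rat 2, and its log2 fold change was 1.04 (SE 0.34, unadjusted p = 0.0209, adjusted p = 0.9996 by edgeR). Foxc1, a forkhead gene of follicle stem cells, had a log2 fold change of 0.44 (SE 0.26) and Tcf7l1, a Wnt-pathway repressor of the bulge, one of -0.35 (SE 0.31). Hr, Barx2 and Foxc1 were the 3 of 23 with groups apart in the upward direction, a share of the list near the 14.8% of all tested genes, and 0 of 23 were apart downward. In 2 of 23 the highest library held at least 4 times the lowest, against 7.61% of tested genes, so most ranges were narrower than that of Hoxc13. The order of Hoxc13 (AAV-Fgf7 ear of rat 1, then control ear of rat 2) held in 7 of 23, against 7.61% of tested genes. They included Lhx2, a factor of follicle stem cells, with counts of 29 and 78 in the control and AAV-Fgf7 ears of rat 1 and 62 and 48 in rat 2, and Ptch1, the receptor of sonic hedgehog, with 77 and 145 in rat 1 and 113 and 73 in rat 2 (both chosen after their values were seen). Gli1, Ovol1, Foxi3, Edaradd, Hoxc12 and Tbx18 had no counts.

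Related homeobox genes mostly had few counts or none, and a count of 0 may also mean that rat reads were not assigned. Of 14 other Msx, Dlx and HoxC genes, 8 had a count and 3 were tested, with 0 past the edgeR threshold. Dlx5 stood at 82.8 and 114 CPM in the control and AAV-Fgf7 ears of rat 1 and at 113 and 74.1 CPM in rat 2, and its log2 fold change was -0.06 (SE 0.31). Dlx6 stood at 34.2 and 32.5 CPM in rat 1 and at 47.9 and 24.9 CPM in rat 2, and its log2 fold change was -0.52 (SE 0.34). Dlx1 had counts of 2 and 20 in rat 1 and of 15 and 0 in rat 2. Dlx1 and Dlx5 thus had the 2 highest libraries of Hoxc13 and Dlx3 in the same order, Dlx5 at nearly equal values. This order was found in 7.61% of all tested genes. Dlx6 had the AAV-Fgf7 libraries below both controls, as did 13.3% of all tested genes. Hoxc12, the neighbour of Hoxc13 in the HoxC cluster, had no counts, nor had Hoxc8, Hoxc9 and Hoxc10. Among 16 genes of trichohyalin processing and the cornified envelope, 7 had a count and 1 was tested. This was Tgm1, a transglutaminase of the epidermis, with counts of 11 and 17 in the ears of rat 1, control first, 21 and 14 in those of rat 2, and its log2 fold change was -0.05 (SE 0.49).

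Of the members, Dlx3 was closest in profile to Hoxc13. Likeness was measured as the root mean square difference of log2 CPM (prior count 2) over the 4 libraries, after each gene was centred on its mean. This difference from Hoxc13 was 0.29 for Dlx3, 0.40 for Tchh, 0.70 for Msx2, 1.29 for Msx1, 1.36 for Sox21 and 1.60 for Trps1. Among the 6363 other tested genes, the 5 closest to Hoxc13 were D730001G18Rik, Krt82, Krt28, Krt33b and Vsig8 (0.20 to 0.50), an anchor chosen after the values were seen. Of these, 4 had 0 counts in the control ear of rat 1, where the prior count sets the value. Vsig8 stood at 47.1 CPM in the control ear and 542 CPM in the AAV-Fgf7 ear of rat 1, and at 323 and 52.6 CPM in rat 2.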

How the data were processed

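RNA-seq was done on ear skin of 2 rats, with 1 control and 1 AAV-Fgf7 library per rat. The authors deposited raw counts per gene and FPKM for the same genes. Per the submitters' processing notes the build was Rnor_6.0 (rn6), yet per the file headers and rows all 54532 genes carry mouse Ensembl identifiers, and 0 of these occurred in the rat RefSeq table. The aligner, the counter and the use of strand were not given in the sources used here. Symbols of all 10 members occurred in that table.

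Counts were filtered (filterByExpr, edgeR 4.0.16, R 4.3.3), which kept 6370 of 12902 genes with a count and 98.9% of counts, and were scaled by TMM factors (0.948 to 1.03). CPM are relative to the scaled total of tested genes. The comparison used edgeR's quasi-likelihood test (two-sided) on group, with Benjamini-Hochberg adjustment over all tested genes at 0.05. SE is the fold change over the root of F. The scripts were tested on simulated data. An exact permutation test of 2 against 2 cannot go below 0.33. Alternatives used DESeq2 1.42.0, limma 3.58.1 on voom values and on log2(FPKM + 1) or log2(FPKM + 0.1), other factors and filters, a replicate block and leaving out each library. The ears of a rat share a rat number in the titles, which pairs them by animal, but their deviations from the mean of their group had r = -0.30 across genes. Between the 2 libraries of a group the chi-square per degree of freedom was 21.6 (control) and 13.0 (AAV-Fgf7), so none was a duplicate. Between the ears matched as 1 rat it was 10.7 (rat 1) and 23.9 (rat 2). It was lower across rats, at 6.89 for control of rat 1 with AAV-Fgf7 of rat 2. For control of rat 2 with AAV-Fgf7 of rat 1 it was 9.52. The match of treated columns to rats, on which these values and r rest, was not tested. Each library comes from 1 ear, so p-values measure the spread between these ears.

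The members and gene lists were chosen with earlier results of these data known. Genes named are the members, Fgf7, up to 4 genes of lowest p per pathway list, the 2 most abundant genes per tissue list where a result turns on them, and the 5 genes nearest in profile to the member with most counts. The genes of this last part are not reported here, and those nearest to Hoxc13 are given. An overlapping antisense row was listed for Sox21 (Gm4675) and Tchh (Gm37245), each with 0 counts.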

Additional observations from a re-analysis of the deposited data

How the results depend on the processing

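The count of 0 genes past the edgeR threshold became 3 without a low-count filter and 3 with DESeq2, and ran from 0 to 59 when 1 library was left out. It stayed at 0 with RLE factors, library totals only, a mean count of at least 10, limma-voom, both FPKM fits and rat as a replicate block (where 75 genes had an unadjusted p below 0.05). The count of 0 members called held in each of these fits, and ran from 0 to 3 when 1 library was left out (3 without the control library of rat 2). With the replicate block the median of the 7 tested members was 0.65. No tested member changed sign under another scaling, filter, tool or block, while the median of all tested genes went from -0.02 to 0.02 with library totals only. When 1 library was left out, the log2 fold change ran from -0.59 to 3.53 for Hoxc13, from -0.55 to 3.34 for Dlx3, from -1.56 to 1.69 for Msx2, from -0.78 to 0.23 for Msx1 and from -1.37 to 4.19 for Tchh, which includes a change of sign for each. The median of the members then ran from -0.59 to 1.69. The negative values of Hoxc13, Dlx3, Msx2 and Tchh arose without their highest library, the AAV-Fgf7 ear of rat 1. The upper ends for these 4 arose without their second highest, the control ear of rat 2. Msx1 became positive without that control library (0.02) and without its lowest library, the AAV-Fgf7 ear of rat 2. Depth limits Foxn1 and Padi3, which had 18 and 8 counts in all. Vdr had 0 counts, which may also mean that rat reads were not assigned to the mouse gene model.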
